A study of Mus musculus with 15 samples.

Results

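Igf2, H19, Meg3, Dlk1, Peg3, Mest, Plagl1, Cdkn1c, Grb10 and Ndn are imprinted genes with known roles in growth, and their RNA was followed in mouse brain tumors of 4 lines and in naïve brain. The list was drawn up with earlier results of these data known. Its genes were taken by symbol, as those whose Ensembl identifier GENCODE assigns to these names, without a cutoff on a measured value. These are 10 of the 46679 genes quantified, and all 10 passed the filter on low counts that left 17481 genes for testing. All mice were C57BL/6, with 3 mice per group and 15 libraries in all. Tumor-bearing mice were 6 to 8 weeks old when cells were placed in the right hemisphere, with 100000 cells of CT2A, GL261 or 005 and 500000 cells of Mut3. Tumor tissue was taken at the humane end-point after perfusion with PBS, and naïve brain came from mice without a tumor, whose age, sex and brain region are not given in the sources used here. CT2A (p53 wild type) and GL261 (K-ras and p53 mutant) came from tumors induced with methylcholanthrene. The 005 line arose from activated H-ras and AKT in p53 heterozygous mice, and Mut3 lacks NF1 and p53. All 4 lines also carry GFP and firefly luciferase. Each tumor group stands for 1 cell line, and the excised tissue holds cells of the host as well as of the line.

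Total counts ran from 3105070 to 5161252 in naïve brain and from 5380577 to 13130030 in the tumors, and 3 counts, the floor for counting error, corresponded to 0.214 to 0.811 normalised CPM. Markers fitted the labels in general, with all 7 proliferation genes higher in each tumor line than in naïve brain. One library, 005 replicate 3, stood apart from its group. Its proliferation genes summed to 143 CPM against 1250 and 1310 in the other 005 libraries, its neuron markers to 4380 CPM against 707 and 233, and its choroid plexus markers to 13800 CPM against 472 and 1930. The other 005 libraries differed too, with leukocyte markers summing to 11900 CPM in 005 replicate 2 against 2510 and 2010 in replicates 1 and 3. Results for the 10 genes in 005 against naïve brain are given with and without replicate 3. Mitochondrial genes took 15% to 24.0% of counts in naïve brain and 3.48% to 17.8% in the tumors.

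An imprinted gene is expressed mainly from the copy inherited from 1 parent, because a control region carries DNA methylation on the maternal or the paternal chromosome. Genes expressed from the paternal copy, such as Igf2, Dlk1, Peg3, Mest, Plagl1 and Ndn, include many that favor growth before birth or act in neurons, and genes expressed from the maternal copy, such as H19, Cdkn1c and, outside neurons, Grb10, include many that restrain it. Most fall in expression after birth, whereas Meg3, Peg3 and Ndn stay on in adult neurons, and Igf2 stays on in the choroid plexus and meninges. The reads were not assigned to a parental copy, so imprinting itself was not measured.

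Of the 10 genes, 4 hold an annotated microRNA, and the microRNAs in H19 and Mest are shown because these were the host RNAs that rose in a tumor. miR-675 is cut from an exon of H19 on the minus strand of chromosome 7, at chr7:142577112-142577133 for its 5p arm and chr7:142577078-142577099 for its 3p arm. miR-335 lies in an intron of Mest on the plus strand of chromosome 6, at chr6:30741314-30741336 and chr6:30741354-30741375. The mature sequences are from RefSeq on GRCm38.p6, written 5′ to 3′, and capitals mark the seed, bases 2 to 8, which pairs with target RNAs.
mmu-miR-675-5p: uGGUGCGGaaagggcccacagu
mmu-miR-675-3p: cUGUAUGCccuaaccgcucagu
mmu-miR-335-5p: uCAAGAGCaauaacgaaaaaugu
mmu-miR-335-3p: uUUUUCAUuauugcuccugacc
The 4 arms have 4 different seeds. Mature microRNAs were not measured by these libraries, in which the highest estimated count was 1.9 for the Mir675 gene and 0.9 for the Mir335 gene.

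Against naïve brain, between 1 and 8 of the 10 genes passed the test in each tumor line. In GL261, H19 and Plagl1 rose and Grb10 fell. In Mut3, H19 and Cdkn1c rose while Igf2, Meg3, Peg3, Plagl1, Grb10 and Ndn fell. In CT2A, Igf2, Meg3, Peg3, Cdkn1c, Grb10 and Ndn fell and none rose, and in 005 only Mest passed the test, as a rise. These calls are not tests between lines, and none of the 10 genes was called between CT2A and 005 in edgeR. In bulk tissue, fewer cells of a type and less RNA per cell cannot be told apart, and this holds for every difference below.

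**Figure D1:**
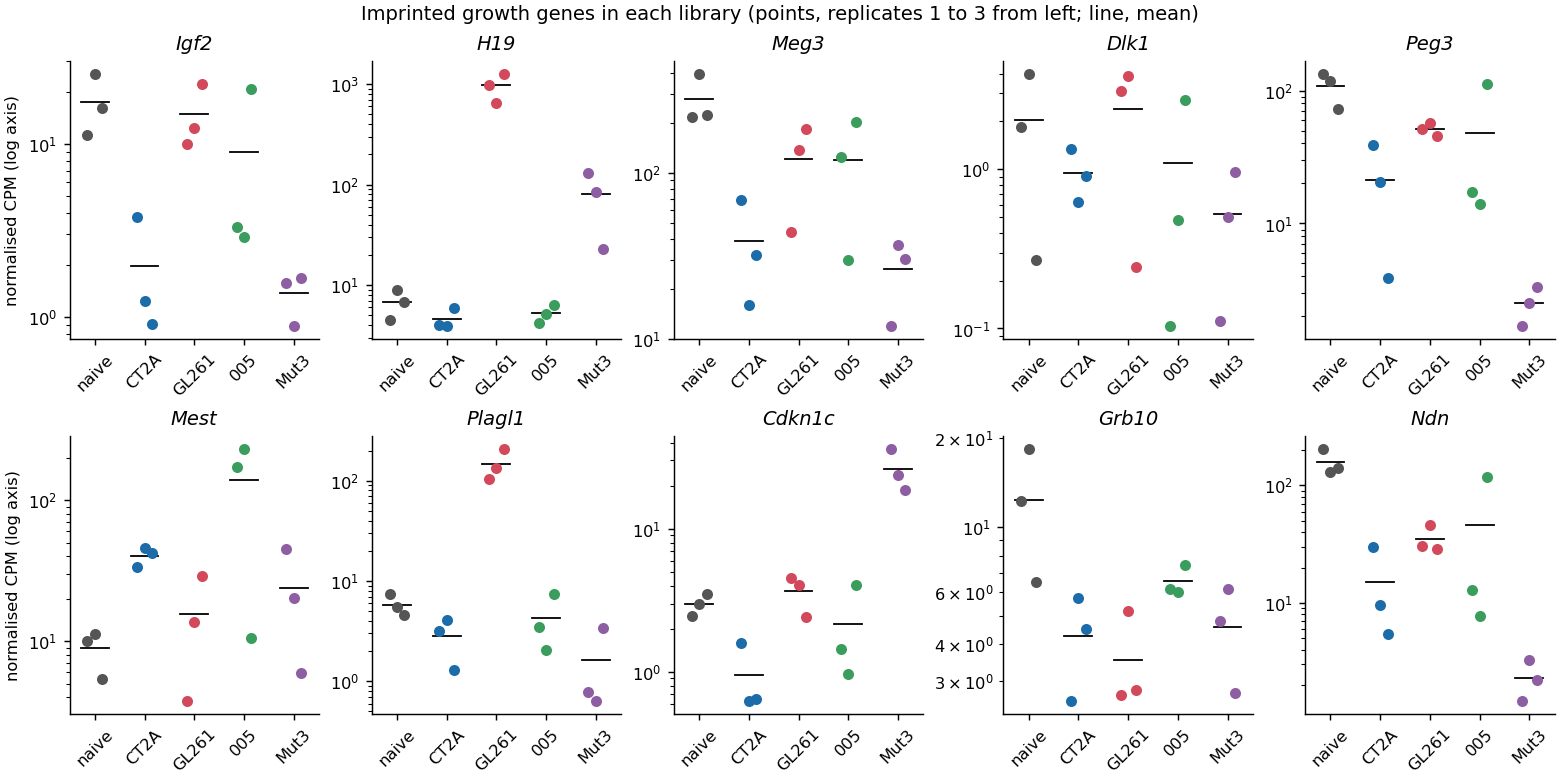
Normalised CPM (counts scaled to library size, log axis) of each of the 10 genes in naïve brain, CT2A, GL261, 005 and Mut3. Points are single mice, replicates 1 to 3 from the left, and lines are group means of 3 mice. H19 reaches 655 to 1270 CPM in GL261, Cdkn1c is highest in Mut3, and 005 replicate 3 sits near naïve brain for Igf2, Peg3 and Ndn.

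A gene was called when the quasi-likelihood test of edgeR gave it a Benjamini-Hochberg adjusted p under 0.05 and a log2 fold change of at least 1 in size. By this rule 6 of the 10 genes were called in CT2A against naïve brain, where 39.2% of all tested genes were called, and all 6 were lower, as were 20.2% of all tested genes. In GL261, 3 were called against 22.4% of all genes, with 2 higher (14.6%) and 1 lower (7.77%). In 005, 1 was called against 12.7% of all genes, and it was higher (11.6%). In Mut3, 8 were called against 37.8% of all genes, with 2 higher (17.9%) and 6 lower (19.8%). The count in CT2A rested on single libraries, since 3 genes were called without naïve replicate 2, when 30.3% of all tested genes were, and 3 without CT2A replicate 3, when 25.6% were. Without 005 replicate 3, 4 genes were called in 005 against naïve brain, where 35.7% of all tested genes were then called, with Mest higher (17.6%) and Igf2, Peg3 and Ndn lower (18.1%). H19, Dlk1, Plagl1 and Cdkn1c were then at −0.58, −2.83, −1.13 and −1.35 on the log2 scale and not called (adjusted p = 0.453, 0.0999, 0.178 and 0.0537). The 1 call in 005 was lost without naïve replicate 1, naïve replicate 3 or 005 replicate 2. The median log2 fold change of the 10 genes was −1.57 in CT2A and −1.85 in Mut3, beside −0.04 and 0.11 over all tested genes. It was −0.0 in GL261 and −0.88 in 005 with all libraries, beside −0.08 and 0.01. The 4 comparisons share their naïve libraries. Over the 5 groups together, 9 of the 10 genes differed (adjusted p under 0.05), as did 52.1% of all tested genes, and the exception was Dlk1.

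**Figure D2:**
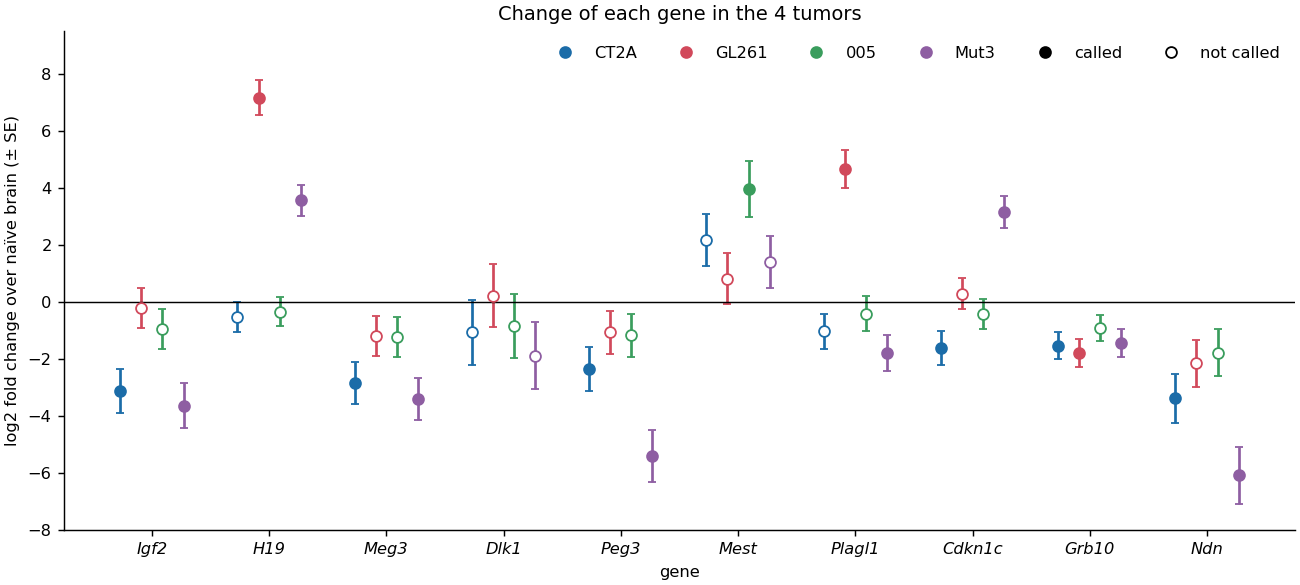
Log2 fold change of each gene in CT2A, GL261, 005 and Mut3 over naïve brain, with bars of 1 standard error from the fit of all 15 libraries. Filled points passed the test with a log2 fold change of at least 1 in size, and open points did not. H19 in GL261 lies highest at 7.17 and Ndn in Mut3 lowest at −6.09.

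H19 (ENSMUSG00000000031, GRCm38 chr7:142575529-142578143, minus strand) is a long noncoding RNA expressed from the maternal copy and abundant in the embryo. Its level was 990, 655 and 1270 CPM in the GL261 libraries and 132, 84.8 and 22.8 CPM in Mut3. It was 4.49, 8.97 and 6.76 CPM in naïve brain, 4.03, 3.88 and 5.94 CPM in CT2A and 4.22, 5.19 and 6.41 CPM in 005. Every GL261 library was therefore above every Mut3 library, and every Mut3 library above all the others, while naïve brain, CT2A and 005 overlapped. H19 was 144-fold higher in GL261 than in naïve brain (log2 fold change 7.17, SE 0.62, adjusted p = 1.96e-05) and 11.8-fold higher in Mut3 (3.57, SE 0.54, adjusted p = 0.000443). The difference between GL261 and Mut3 was itself called, at 12.2-fold (adjusted p = 0.000804). In CT2A and 005 the log2 fold change over naïve brain was −0.54 (adjusted p = 0.42) and −0.34 (adjusted p = 0.663). Every call for H19 held under all 21 alternative settings, and leaving out Mut3 replicate 1, the highest Mut3 library, moved the change of GL261 over Mut3 from 3.61 to 4.30.

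Levels of different genes were compared as TPM, which divides by transcript length. H19 stood at 139, 114 and 248 TPM in the GL261 libraries, which placed its mean at rank 495 of 46679 genes there. It ranked above the other 9 genes in GL261 and in Mut3, whereas Meg3 led in naïve brain and Mest in CT2A and 005. The genes whose log2 CPM followed H19 most closely over the 15 libraries were Usp50 (Pearson r = 0.965), the long noncoding RNA Gm11033 (r = 0.956) and the cartilage collagen gene Col2a1 (r = 0.948). These libraries share groups, so such a correlation mostly follows the differences between groups.

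Igf2 (ENSMUSG00000048583, chr7:142650766-142666816, minus strand) encodes a fetal growth factor that signals through the IGF1 receptor. It lies 72.6 kb from H19, and in the normal embryo the shared enhancers serve Igf2 on the paternal copy and H19 on the maternal copy. Igf2 was at 11.2, 25.4 and 16.0 CPM in naïve brain and 9.95, 12.4 and 22.3 CPM in GL261. It was at 3.79, 1.24 and 0.904 CPM in CT2A, 1.57, 0.881 and 1.67 CPM in Mut3, and 3.30, 2.90 and 20.8 CPM in 005. GL261 thus overlapped naïve brain, CT2A and Mut3 lay wholly below both, and 005 replicate 3 lay within the naïve range while the other 005 libraries lay below it. Igf2 fell 8.71-fold in CT2A (log2 fold change −3.12, SE 0.77, adjusted p = 0.00669) and 12.5-fold in Mut3 (−3.65, SE 0.79, adjusted p = 0.00275), and without CT2A replicate 1 the change in CT2A was −4.00. In 005 the log2 fold change was −0.95 (adjusted p = 0.356), and without 005 replicate 3 it was −2.56 and was called (adjusted p = 0.00525). GL261 differed from naïve brain by −0.23 (SE 0.70, adjusted p = 0.83), and was 10.7-fold above Mut3 (adjusted p = 0.0103). The excess of GL261 over CT2A, 7.44-fold (adjusted p = 0.0318), lost its call in 6 of 21 alternatives, among them leaving out CT2A replicate 2 or 3 or any single GL261 library. Without CT2A replicate 1 the log2 fold change of CT2A over GL261 was −3.78.

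The balance of the neighboring genes differed between groups. As TPM, H19 was 0.236, 0.204 and 0.240 times Igf2 in naïve brain. The ratio was 56.8, 30.1 and 32.7 in GL261 and 48.6, 55.2 and 7.88 in Mut3. It was 0.623, 1.77 and 3.96 in CT2A and 0.722, 1.01 and 0.178 in 005. All GL261 and Mut3 libraries were therefore above the others, with Mut3 replicate 3 the lowest of them. In GL261 Igf2 overlapped naïve brain as H19 rose, and in Mut3 Igf2 fell while H19 rose. In CT2A and Mut3 the ratio rests on few reads of Igf2, whose estimated count was 6.7 to 30.9 and 7.0 to 18.9 per library.

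**Figure D3:**
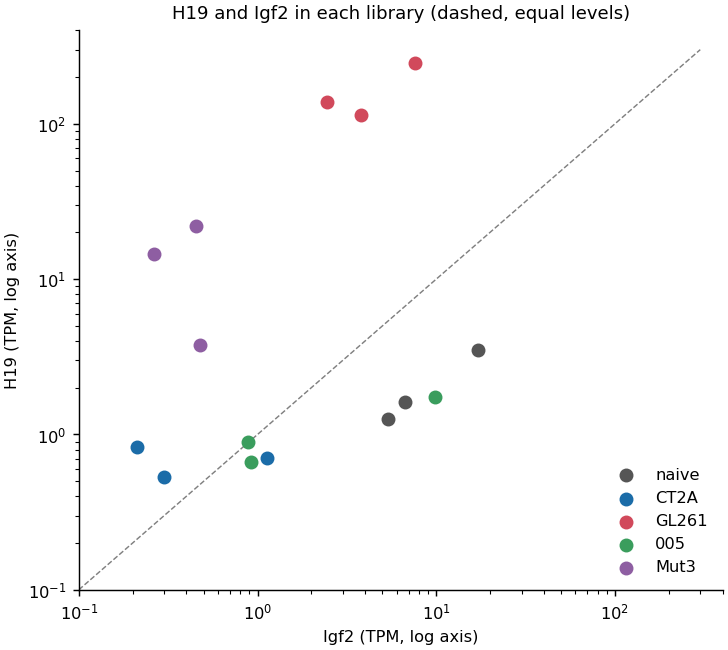
H19 against Igf2 in each of the 15 libraries, both as TPM on log axes, colored by group, with a dashed line at equal levels. GL261 and Mut3 libraries lie above the line, naïve libraries below it, and 005 replicate 3 lies beside naïve brain.

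Markers of the cells that express Igf2 in the adult brain were read beside it. The summed choroid plexus markers were 790 to 3420 CPM in naïve brain, 633 to 3370 CPM in CT2A, 666 to 4010 CPM in GL261, 452 to 878 CPM in Mut3 and 472 to 13800 CPM in 005, with the highest value in 005 replicate 3. Nearly all of this sum was Ttr, the transthyretin gene, at 756 to 3330 CPM in naïve brain and 13600 CPM in 005 replicate 3. None of the 9 was called in 005 against naïve brain (12.7% of all tested genes), and 1 was lower without 005 replicate 3 (18.1%). In CT2A and in Mut3 1 was lower (20.2% and 19.8%), and in GL261 1 was higher (14.6%). The 10 meningeal fibroblast markers summed to 68.5 to 101 CPM in naïve brain, 76.4 to 104 CPM in CT2A, 97.5 to 139 CPM in GL261 and 76.9 to 117 CPM in Mut3. In 005 they summed to 29.0, 71.1 and 84.9 CPM, lowest in replicate 1 and highest in replicate 3, the library in which Igf2 was highest. In CT2A and Mut3, where Igf2 fell, these sums overlapped naïve brain. The choroid plexus sum in Mut3 did so only through Mut3 replicate 3 (878 CPM) and naïve replicate 1 (790 CPM). The median log2 fold change of the choroid plexus markers was −0.53 in CT2A and −1.92 in Mut3. Of the 10 meningeal markers, 1 was higher and 3 lower in CT2A (19% and 20.2% of all tested genes), and 0 and 2 in Mut3 (17.9% and 19.8%). In GL261 1 was higher and 0 lower (14.6% and 7.77%), and in 005 0 and 0 (11.6% and 1.05%). Without 005 replicate 3, 0 were higher and 3 lower in 005 (17.6% and 18.1%). Col1a1 was between 1.65 and 15.2 CPM over all libraries. The part of these cells in the level of Igf2 was not tested.

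Other genes of the IGF pathway were read from a list of 19, of which 16 were tested. In CT2A 3 were higher and 2 lower than in naïve brain, beside 19% and 20.2% of all tested genes, in GL261 2 and 0 (14.6% and 7.77%), in 005 3 and 0 (11.6% and 1.05%), and in Mut3 3 and 2 (17.9% and 19.8%). In 005 without replicate 3, 6 of 17 tested were higher and 2 lower (17.6% and 18.1%). Igfbp3, which encodes a secreted protein that binds IGFs, was higher in all 4 lines. It rose from 1.43, 0.747 and 2.43 CPM in naïve brain to 33.0, 48.1 and 62.3 CPM in CT2A, a log2 fold change of 4.96 (SE 0.71, adjusted p = 0.000407), and by 2.49 in GL261, 3.19 in 005 (3.60 without 005 replicate 3) and 2.15 in Mut3. The calls in GL261 and Mut3 were each lost without any of 3 single libraries, among them naïve replicates 1 and 2. Igfbp5, another binding protein, fell in CT2A (log2 fold change −2.18, adjusted p = 0.00466). Igfbp7, a related secreted protein, rose in 005 (1.90, adjusted p = 0.00889, or 2.08 without 005 replicate 3) and Mut3 (1.35, adjusted p = 0.0185). Its call was lost without naïve replicate 1 in both lines, without 005 replicate 2 in 005, and without naïve replicate 3 or Mut3 replicate 1 or 2 in Mut3. Igf2r, the receptor that carries IGF2 to the lysosome and is itself imprinted, was at 104, 45.7 and 12.8 CPM in Mut3 against 12.2, 14.2 and 8.92 CPM in naïve brain, a rise of 2.20 (adjusted p = 0.0183) although Mut3 replicate 3 lay within the naïve range, and the call was lost without Mut3 replicate 1 or naïve replicate 1 or 3. Igf2r was at 74.5, 58.1 and 11.4 CPM in 005, with a log2 fold change of 2.02 that was not called (adjusted p = 0.0611) and of 2.42 that was called without 005 replicate 3 (adjusted p = 0.00457). The insulin receptor gene Insr was lower in Mut3 than in CT2A (log2 fold change of CT2A over Mut3 1.34, adjusted p = 0.0239, lost without CT2A replicate 1 or 2 or Mut3 replicate 1 or 2) and 005 (1.79, adjusted p = 0.00507, or 1.98 without 005 replicate 3). Igf2bp2, whose product binds Igf2 RNA, was higher in GL261 than in Mut3 (1.27, adjusted p = 0.00747, lost without GL261 replicate 3).

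Plagl1 (ENSMUSG00000019817, chr10:13060504-13131694, plus strand), also called Zac1, encodes a zinc finger transcription factor that can stop the cell cycle and acts on other imprinted genes, H19 and Igf2 among them. It was at 103, 133 and 208 CPM in GL261, against 7.34, 5.48 and 4.60 CPM in naïve brain. It was at 3.18, 4.04 and 1.29 CPM in CT2A, 3.50, 2.05 and 7.41 CPM in 005, and 0.783, 0.629 and 3.43 CPM in Mut3. GL261 stood apart from every other library, and Mut3 lay below naïve brain without overlap. Plagl1 was 25.3-fold higher in GL261 than in naïve brain (log2 fold change 4.66, SE 0.66, adjusted p = 0.000478). GL261 was also above the other tumors, 52.1-fold over CT2A (adjusted p = 0.000305), 33.6-fold over 005 (adjusted p = 0.000722) and 88.0-fold over Mut3 (adjusted p = 0.000145), and all 4 calls held under every alternative. Without 005 replicate 3 the excess over 005 was 52.3-fold. The fall in Mut3, 3.48-fold (adjusted p = 0.0355), lost its call with only the samples compared and without naïve replicate 1 or 2 or Mut3 replicate 1 or 2. Without Mut3 replicate 3 the log2 fold change of Plagl1 was −3.02 in Mut3 over naïve brain and 7.80 in GL261 over Mut3. Over the 15 libraries log2 CPM of Plagl1 and H19 correlated at r = 0.68, with the high values of both in GL261 but only H19 raised in Mut3, and the closest genes to Plagl1 were the purinergic receptor gene P2ry1 (r = 0.95), Gtsf1 (r = 0.949) and Moxd1 (r = 0.947).

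Cdkn1c (ENSMUSG00000037664, chr7:143458339-143461050, minus strand) encodes p57, an inhibitor of cyclin-dependent kinases expressed from the maternal copy. It was at 36.2, 23.8 and 18.7 CPM in Mut3, against 2.45, 2.99 and 3.52 CPM in naïve brain. It was at 4.56, 4.04 and 2.43 CPM in GL261, 1.44, 0.966 and 4.06 CPM in 005, and 1.59, 0.621 and 0.646 CPM in CT2A. All 3 Mut3 libraries were above the highest of the others. Cdkn1c was 8.79-fold higher in Mut3 than in naïve brain (log2 fold change 3.14, SE 0.56, adjusted p = 0.00097), 26.8-fold higher than in CT2A (adjusted p = 0.000246), 7.17-fold higher than in GL261 (adjusted p = 0.00384) and 11.9-fold higher than in 005 (adjusted p = 0.00128, or 22.2-fold without 005 replicate 3), and these 4 calls held under every alternative. Without CT2A replicate 1 the log2 fold change of CT2A over Mut3 moved from −4.74 to −5.33. The fall in CT2A, 3.05-fold (adjusted p = 0.0396), rests on 3.8 to 13 estimated counts per library and was lost in 12 of 21 alternatives, among them leaving out any single naïve or Mut3 library, CT2A replicate 2 or 3, or GL261 replicate 1 or 2. The 7 proliferation genes summed to 999 to 2100 CPM in the same Mut3 tumors and to 31.8 to 48.4 CPM in naïve brain.

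Of 7 listed genes of the imprinted cluster around Cdkn1c, all tested, 4 were higher in Mut3 than in naïve brain (Kcnq1ot1, Kcnq1, Phlda2 and Tssc4), as were 17.9% of all tested genes. Slc22a18, Ascl2 and Cd81 were not called. In GL261, where Cdkn1c did not pass the test, Kcnq1 and Phlda2 were higher (14.6% of all tested genes), and in CT2A and 005 none of the 7 was called. Kcnq1 rests on few counts, at a mean of 0 CPM in naïve brain, 2.26 CPM in Mut3 and 3.29 CPM in GL261. Kcnq1ot1, the antisense RNA that silences the cluster on the paternal copy, was at 126, 109 and 156 CPM in Mut3 and 42.6, 54.3 and 47.1 CPM in naïve brain, a rise of 1.44 on the log2 scale (SE 0.37, adjusted p = 0.00723). Tssc4 rose by 1.28 (adjusted p = 0.00867), from 9.38, 8.22 and 9.19 CPM to 25.3, 19.6 and 20.1 CPM. Phlda2, which limits growth of the placenta, was at 8.73, 1.64 and 1.14 CPM in Mut3 and 3.11, 2.91 and 1.94 CPM in GL261, while it stayed at or under 0.249 CPM, below the floor of 3 counts, in every library of naïve brain, CT2A and 005. Its call in GL261 was lost without naïve replicate 1 or 3. Cd81, a tetraspanin gene at the edge of the cluster, was higher in Mut3 (644, 627 and 578 CPM) and GL261 (587, 510 and 479 CPM) than in CT2A (196, 140 and 170 CPM), with a log2 fold change of CT2A over Mut3 of −1.87 (adjusted p = 0.000322). Against naïve brain its log2 fold change was 0.95 in Mut3 and 0.72 in GL261, both under the log2 fold change of 1 that a call required. Whether Kcnq1ot1 reads were kept apart from those of Kcnq1 on the other strand is not given in the sources used here. The genes closest to Cdkn1c over the 15 libraries were the antisense RNA 2810468N07Rik (r = 0.973), Lims2 (r = 0.952) and Scrg1 (r = 0.952).

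Mest (ENSMUSG00000051855, chr6:30723547-30748465, plus strand) encodes a hydrolase-like protein of mesoderm and adipose growth and hosts miR-335. It was at 172, 231 and 10.5 CPM in 005, against 10, 11.2 and 5.41 CPM in naïve brain. It was at 33.3, 45.5 and 42.4 CPM in CT2A, 3.73, 13.7 and 29.1 CPM in GL261, and 45.2, 20.1 and 5.98 CPM in Mut3. In 005 replicates 1 and 2 Mest was above every other library, while 005 replicate 3 lay within the naïve range. The rise in 005 was 15.5-fold (log2 fold change 3.95, SE 0.98, adjusted p = 0.017) and 21.5-fold without 005 replicate 3 (4.43, adjusted p = 0.000603). Without that library 005 was also above GL261, 12.9-fold (adjusted p = 0.00877), and above Mut3, 8.22-fold (adjusted p = 0.0097), differences that were not called with it in edgeR (adjusted p = 0.106 and 0.0617). With all libraries DESeq2 called both (adjusted p = 0.00581 and 0.0133), as did edgeR with no filter on low counts (adjusted p = 0.0141 and 0.0163). The 3 CT2A libraries lay above naïve brain without overlap, but the change of 2.18 (SE 0.92) was not called (adjusted p = 0.0705), though it was in 4 of 21 alternatives. The rise in 005 lost its call with only the samples compared and without naïve replicate 1, naïve replicate 3 or 005 replicate 2 (log2 fold change 3.36 without the last). The leukocyte markers were also highest in 005 replicate 2, and their part in the level of Mest was not tested. Mest shares 912 exonic bases with Copg2 on the opposite strand, and the strand setting of the counting is not given in the sources used here. Copg2 was at 108, 29.1 and 234 CPM in naïve brain and 90.8, 41.9 and 73.2 CPM in 005, so it did not follow Mest, and it was not called in any comparison. The genes closest to Mest were Tcf7 (r = 0.896), 2810408A11Rik (r = 0.892) and Cttn (r = 0.891).

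Meg3 and Dlk1 lie 77.7 kb apart in an imprinted domain of chromosome 12. Meg3 (ENSMUSG00000021268, chr12:109541001-109571726, plus strand) is a long noncoding RNA of the maternal copy, abundant in neurons, and Dlk1 (ENSMUSG00000040856, chr12:109452823-109463336, plus strand) encodes a Notch-related membrane protein of the paternal copy. Meg3 was at 218, 395 and 222 CPM in naïve brain, 68.8, 16.1 and 31.9 CPM in CT2A and 11.9, 36.7 and 30.3 CPM in Mut3. It was at 43.9, 137 and 184 CPM in GL261 and 124, 29.7 and 203 CPM in 005. No tumor library reached the lowest naïve library, and the CT2A and Mut3 libraries overlapped each other. Meg3 fell 7.14-fold in CT2A (log2 fold change −2.84, SE 0.73, adjusted p = 0.0078) and 10.6-fold in Mut3 (−3.40, SE 0.74, adjusted p = 0.00284), with −3.52 in CT2A when replicate 1 was left out. GL261 differed from naïve brain by −1.20 (SE 0.69, adjusted p = 0.201). For 005 the value was −1.23 (adjusted p = 0.224), or −1.93 (adjusted p = 0.0558) without 005 replicate 3. GL261 and 005 were above Mut3 by 2.21 (adjusted p = 0.044) and 2.18 (adjusted p = 0.042), calls lost in 12 and 14 of 21 alternatives, among them leaving out any single naïve or Mut3 library, CT2A replicate 3, GL261 replicate 2 or 3, or 005 replicate 1. Without 005 replicate 3 the difference between 005 and Mut3 was 1.49. Rian, the next noncoding RNA of the domain, fell by 3.03 in CT2A (adjusted p = 0.0048) and by 2.71 in Mut3 (adjusted p = 0.00669). Dlk1 was between 0.103 and 3.99 CPM, on 0.7 to 37.8 estimated counts, and was not called in any of the 10 comparisons (5-group adjusted p = 0.45), a depth at which only large differences were detectable.

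Peg3 (ENSMUSG00000002265, chr7:6703892-6730431, minus strand) encodes a zinc finger protein, and Ndn (ENSMUSG00000033585, chr7:62346569-62350262, plus strand) encodes necdin, a protein of neurons after their last division. Both are expressed from the paternal copy, lie far apart on chromosome 7, and correlated at r = 0.97 over the 15 libraries, the highest of any pair of the 10 genes. RefSeq promoter windows, 250 bases before to 50 after a transcript start on GRCm38.p6, were held for 8 of the 10 genes, and those of this pair are shown because these genes moved together. The Peg3 window is chr7:6730370-6730669 on the minus strand and the Ndn window chr7:62348027-62348326 on the plus strand. Capitals mark GGGGCCCC, a sequence that Plagl1 binds, in Peg3, and 2 overlapping GC boxes (GGGCGG, here read on the opposite strand) in Ndn.
Peg3: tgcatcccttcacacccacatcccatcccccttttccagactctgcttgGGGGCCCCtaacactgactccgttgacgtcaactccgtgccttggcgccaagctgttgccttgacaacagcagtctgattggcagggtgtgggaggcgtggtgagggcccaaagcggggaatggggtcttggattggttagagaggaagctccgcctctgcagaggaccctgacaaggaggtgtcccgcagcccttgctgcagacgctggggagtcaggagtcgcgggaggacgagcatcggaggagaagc
Ndn: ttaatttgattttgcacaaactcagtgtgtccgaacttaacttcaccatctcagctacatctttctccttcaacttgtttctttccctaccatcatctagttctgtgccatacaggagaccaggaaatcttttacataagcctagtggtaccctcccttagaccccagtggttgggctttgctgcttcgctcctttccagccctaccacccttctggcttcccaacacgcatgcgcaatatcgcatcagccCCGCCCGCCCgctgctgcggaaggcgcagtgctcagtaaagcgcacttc
On both strands, GGGGCCCC was found in 1.1% of 32851 such windows, GGGCGG in 35.7% and TATAAA in 13.6%. Neither window held TATAAA, the 2 windows shared none of the 3 motifs, and they held 13 and 11 CpG sites against a median of 7. A match describes the letters of the window and no binding was measured.

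Ndn was at 205, 129 and 140 CPM in naïve brain, 29.9, 9.63 and 5.43 CPM in CT2A and 1.45, 3.27 and 2.20 CPM in Mut3. It was at 30.5, 46.5 and 28.9 CPM in GL261 and 12.8, 7.73 and 117 CPM in 005. All tumor libraries were below naïve brain, Mut3 was below all the others, and 005 replicate 3 came closest to naïve brain. Ndn fell 68.2-fold in Mut3 (log2 fold change −6.09, SE 1.00, adjusted p = 0.000666) and 10.5-fold in CT2A (−3.39, SE 0.87, adjusted p = 0.00794), with −4.38 in CT2A when replicate 1 was left out. In GL261 the change of −2.16 was not called (adjusted p = 0.0685), and in 005 it was −1.78 (adjusted p = 0.152) with all libraries and −4.01 (adjusted p = 0.000389) without 005 replicate 3. GL261 was 15.3-fold above Mut3 (adjusted p = 0.0113) and 005 19.9-fold above it (adjusted p = 0.00698, or 4.28-fold and 0.0232 without 005 replicate 3), the latter lost with only the samples compared (adjusted p = 0.0569).

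Peg3 followed the same order at the ends. It was at 134, 118 and 72.5 CPM in naïve brain, 51.4, 57.2 and 45.7 CPM in GL261 and 17.4, 13.9 and 113 CPM in 005. It was at 38.7, 20.6 and 3.88 CPM in CT2A and 1.68, 2.52 and 3.34 CPM in Mut3. Mut3 again lay below every other library, and GL261 lay wholly between naïve brain and CT2A. Peg3 fell 42.6-fold in Mut3 (log2 fold change −5.41, SE 0.91, adjusted p = 0.00072) and 5.14-fold in CT2A (−2.36, SE 0.78, adjusted p = 0.0256), the latter lost without naïve replicate 1 or 2 or CT2A replicate 2 or 3 and at −3.14 without CT2A replicate 1. GL261 differed from naïve brain by −1.07 (SE 0.75, adjusted p = 0.29). For 005 the value was −1.17 (adjusted p = 0.284), or −2.86 without replicate 3 (adjusted p = 0.00415). Mut3 was also below CT2A, 8.30-fold (adjusted p = 0.0248, lost without CT2A replicate 1, Mut3 replicate 1 or Mut3 replicate 2), GL261, 20.2-fold (adjusted p = 0.0049), and 005, by 4.24 on the log2 scale (adjusted p = 0.00515, or 2.56 and 0.0124 without 005 replicate 3). Of the 3 listed neighbors of Peg3, 2 were tested, and in Mut3 Usp29 fell 18.4-fold (adjusted p = 0.00114) while Zim1, at −1.68 on the log2 scale, was not called (adjusted p = 0.315). Of 6 listed genes in the domain of Ndn, 5 were tested, and in Mut3 Snrpn, Snurf, Magel2 and Peg12 fell, as did 19.8% of all tested genes. Snurf, Magel2 and Peg12 were at low means of 3.54, 1.38 and 4.16 CPM in naïve brain and 0.088, 0 and 0.747 CPM in Mut3. The mean of Peg12 was 9.24 CPM in CT2A and 13.3 CPM in 005, above naïve brain, and 2.37 CPM in GL261. None of these 3 changes of Peg12 was called (adjusted p = 0.233, 0.151 and 0.463). In Mut3 Snrpn fell 48.8-fold (adjusted p = 0.000785), while Ube3a was not called (−0.54, adjusted p = 0.105). In CT2A only Snrpn of these 7 tested neighbors was called, with a fall of 3.46 on the log2 scale (adjusted p = 0.00654), and in GL261 and 005 none was. Snrpn and Usp29 fell in 005 by 3.91 and 2.89 when replicate 3 was left out.

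Neuron markers moved with both genes. The 10 neuron markers summed to 5440 to 7240 CPM in naïve brain, 257 to 1240 CPM in CT2A, 903 to 2220 CPM in GL261, 233 to 4380 CPM in 005 and 58.1 to 164 CPM in Mut3. All 10 were called lower than in naïve brain in CT2A and Mut3 (20.2% and 19.8% of all tested genes). In GL261 and 005 0 were called. All 10 were called lower in Mut3 than in GL261 and 005 (11.1% and 14.0%). Without 005 replicate 3, only 3 were called lower in Mut3 than in 005 (9.63%). All 10 were then called lower in 005 than in naïve brain (18.1%). As a percent of the naïve mean, Ndn was 19, 6.10 and 3.44 in the CT2A libraries and the neuron marker sum 19.8, 4.09 and 4.45. In 005 Ndn was at 8.10, 4.90 and 74.3 percent and the marker sum at 11.2, 3.71 and 69.6 percent, and in Mut3 at 0.922, 2.07 and 1.39 against 0.923, 2.61 and 2.27 percent. The percent left of Ndn thus lay close to that of the neuron markers in each library. Peg3 kept more than the markers in GL261, 42.2 to 52.8 percent against 14.4 to 35.2, and in each 005 library, at 16.1, 12.8 and 104 percent. In CT2A it was above the marker sum in replicates 1 and 2 (35.7 and 19.1 percent) and below it in replicate 3 (3.58 percent). In Mut3 Peg3 was at 1.55, 2.32 and 3.08 percent, above the sum in replicates 1 and 3. Meg3 and Igf2 were above the marker sum in every tumor library, with Igf2 at 56.8 to 127 percent in GL261. Meg3 and Igf2 in Mut3 kept 4.26 to 13.2 and 5.03 to 9.53 percent, above the 0.923 to 2.61 percent of the marker sum. The genes most like Ndn were the synaptic gene Rab3c (r = 0.994), the neuronal enolase Eno2 (r = 0.993) and Tmem130 (r = 0.991), and among the closest genes were Gad2 for Peg3 (r = 0.972) and Camk2a for Meg3 (r = 0.968). Eno2, Gad2 and Camk2a are themselves among the 10 neuron markers. The part of the neuron content in the falls of Ndn, Peg3, Meg3 and Igf2 was not tested.

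**Figure D4:**
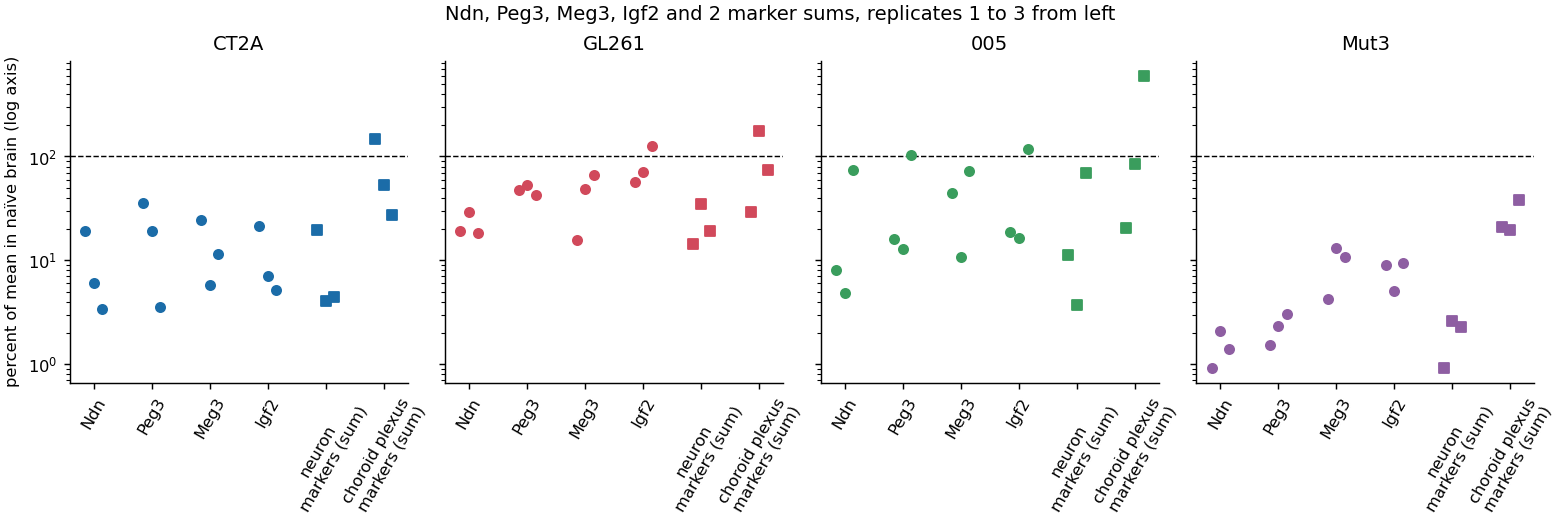
Level of Ndn, Peg3, Meg3 and Igf2 (circles) and of the summed neuron and choroid plexus markers (squares) in each tumor library, as percent of the mean of the 3 naïve libraries on a log axis, with replicates 1 to 3 from the left. The dashed line is the naïve mean. Ndn lies beside the neuron marker sum in each line, and the choroid plexus sum reaches 599 percent in 005 replicate 3.

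Grb10 (ENSMUSG00000020176, chr11:11930508-12038683, minus strand) encodes an adaptor that dampens insulin and IGF receptor signaling and is expressed from the paternal copy in neurons. It was at 12.2, 18.4 and 6.49 CPM in naïve brain, 2.56, 5.74 and 4.52 CPM in CT2A and 2.69, 5.17 and 2.79 CPM in GL261. It was at 6.18, 6.04 and 7.41 CPM in 005 and 4.81, 6.17 and 2.73 CPM in Mut3. The CT2A, GL261 and Mut3 libraries lay below the lowest naïve library and 005 overlapped it. Grb10 fell by 1.54 on the log2 scale in CT2A (SE 0.48, adjusted p = 0.0199). It fell by 1.80 in GL261 tumors (SE 0.49, adjusted p = 0.0184) and by 1.44 in Mut3 (SE 0.48, adjusted p = 0.026), and the change in 005 was −0.92 (adjusted p = 0.188, or −1.09 and 0.123 without 005 replicate 3). All 3 calls were lost when naïve replicate 2, the highest library, was left out (log2 fold change −0.93 in CT2A). They were also lost without CT2A replicate 1 or 3 (CT2A), GL261 replicate 1 or 3 (GL261), and naïve replicate 1 or Mut3 replicate 1 or 3 (Mut3), and Grb10 was not called between any pair of tumors. Ddc, the imprinted neighbor that encodes the enzyme making dopamine and serotonin from their precursors, was at 42.5, 39.0 and 36.3 CPM in Mut3 against 4.28, 6.23 and 5.14 CPM in naïve brain, a 7.52-fold rise (adjusted p = 0.00142).

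Among the 6 pairs of tumor lines, between 0 and 7 of the 10 genes were called. GL261 and Mut3 differed in 7 of the 10 genes, where 17.2% of all tested genes were called, with 6 higher in GL261 (11.1%) and Cdkn1c higher in Mut3 (6.10%). 005 and Mut3 differed in 6 (19.8% of all genes), with Igf2, Meg3, Peg3 and Ndn higher in 005 (14.0%) and H19 and Cdkn1c higher in Mut3 (5.76%). Without 005 replicate 3, Igf2 (log2 fold change 1.09) and Meg3 of these were not called (adjusted p = 0.229 and 0.16) and Mest was, with 16.1% of all genes called. The call for Igf2 was also lost without any single Mut3 library. CT2A and Mut3 differed in 3 (12.8% of all genes), with Peg3 higher in CT2A (6.61%) and H19 and Cdkn1c higher in Mut3 (6.15%). CT2A and GL261 differed in 3 (7.77% of all genes), with Igf2, H19 and Plagl1 all higher in GL261 (3.62%). GL261 and 005 differed in 2 (2.62% of all genes), H19 and Plagl1, both higher in GL261 (1.73%), and in 4 without 005 replicate 3 (5.86% of all genes), when Igf2 was also higher in GL261 and Mest higher in 005. CT2A and 005 differed in 0 of 10 in edgeR (4.11% of all genes), where 2 genes had an unadjusted p under 0.05, and DESeq2 called 1, Igf2. These 6 pairs share libraries, so their counts are not independent.

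**Figure D5:**
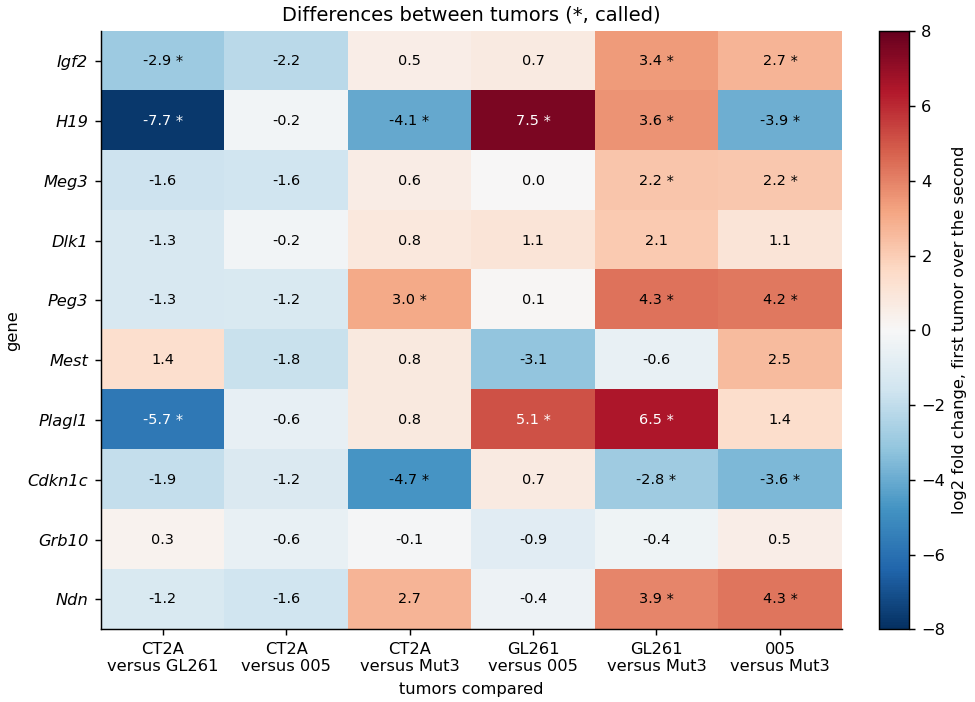
Log2 fold change of the first over the second tumor for each gene (rows) and each of the 6 pairs of tumor lines (columns), with color from −8 to 8 and an asterisk where the difference was called. H19 and Plagl1 differ in every pair with GL261, and Cdkn1c in every pair with Mut3.

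Across the 5 groups the order of the levels was clear only at its ends. For H19, GL261 was above Mut3 and Mut3 above naïve brain, and naïve brain, 005 and CT2A did not differ from their neighbors in the order (adjusted p = 0.663 and 0.835). For Plagl1 only the step from GL261 to naïve brain was called, and for Cdkn1c only that from Mut3 to GL261. For Peg3 the step from CT2A down to Mut3 was called, while for Ndn the same step was not (adjusted p = 0.0575), though it was in 6 of 21 alternatives. For Igf2, Meg3, Dlk1, Mest and Grb10 no step between neighboring groups was called with all libraries in edgeR. The step of Igf2 from GL261 to 005 was called without 005 replicate 3 (log2 fold change 2.26, adjusted p = 0.0418). The change of Ndn from naïve brain to 005 was then called too (adjusted p = 0.000389). Naïve brain and 005 were then no longer neighbors, since Ndn in 005, at 12.8 and 7.73 CPM, lay below every GL261 library. In DESeq2 with all libraries, the step of Igf2 from 005 to CT2A was called (adjusted p = 0.0416).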

How the data were processed

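RNA from 12 tumors and 3 naïve brains was sequenced. Per the study's methods, reads were aligned with STAR v2.4.2a to the GENCODE mouse genome, and Picard and RNA-SeQC were used to mark duplicates and gather metrics. The submitters' processing notes list mm10, Salmon and DESeq2 1.18.1. The authors deposited expected counts per gene, not normalized between samples, and TPM, scaled to gene length and a fixed total per sample. The annotation release and strand setting are not given in the sources used here. Symbols and positions came from GENCODE on GRCm38, which matched 46201 of 46679 identifiers.

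Expected counts were rounded and tested in edgeR 4.0.16 (R 4.3.3): filterByExpr, TMM, and the quasi-likelihood test on all 15 samples with a mean per group and no covariate. Adjusted p-values are Benjamini-Hochberg over all 17481 tested genes. Normalised CPM divides rounded counts by library size times TMM factor. Because counts and TPM differed only by a factor per gene and per sample, they are not independent. The fitting steps were tested on simulated data. Groups and replicates came from the labels, and replicates are different mice.

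The 10 genes and all lists were chosen with earlier results of these data known. Named besides the 10 genes were up to 6 genes per list with the smallest p over the 5 groups, the 3 genes with the highest r to each of the 10, and marker genes. Rian, Copg2 and the other genes of the Cdkn1c, Peg3 and Ndn domains were named after their values were seen. Alternatives were DESeq2 1.42.0, relative log expression or library size scaling, no filter, only the samples compared, no fold threshold, a replicate block, and each of the 15 samples left out. Part of the genotype of the tumor lines is not reported here.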

Additional observations from a re-analysis of the deposited data

Results flagged for a closer look

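For 7 of the imprinted growth genes, the change from naïve brain differed between tumor lines by a test of the difference itself, the contrast between the lines in edgeR's quasi-likelihood test. Single pairs of lines called from 2.62% (GL261 against 005) to 19.8% (005 against Mut3) of all tested genes. The share of all genes called in at least 1 of the 6 pairs was not computed, so the count of 7 has no such share beside it. The pair with the smallest p is given for each gene. H19 had a log2 fold change of CT2A over GL261 of −7.71 (adjusted p = 9.72e-06), and 5 of the 6 pairs of lines were called for it. Plagl1 was higher in GL261 than in Mut3 by 6.46 (adjusted p = 0.000145), with 3 pairs called, and Cdkn1c had a log2 fold change of CT2A over Mut3 of −4.74 (adjusted p = 0.000246), with 3 pairs called. Peg3 was higher in GL261 than in Mut3 by 4.34 (adjusted p = 0.0049) and Igf2 by 3.42 (adjusted p = 0.0103), each with 3 pairs called. Ndn was higher in 005 than in Mut3 by 4.31 (adjusted p = 0.00698) and Meg3 higher in GL261 than in Mut3 by 2.21 (adjusted p = 0.044), each with 2 pairs called. Mest, Grb10 and Dlk1 were not called between any pair of lines in edgeR with all libraries and the filter on low counts. DESeq2, and edgeR with no filter, called Mest between 005 and both GL261 and Mut3. With 3 mice per group, no test for a single outlying sample was made.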

How the results depend on the processing

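Of 39 called changes of the 10 genes, 26 kept their call in all 21 alternatives run and 13 lost it in some, and 12 changes that were not called gained a call in some. Of 67 called changes of the other named imprinted and IGF genes, 37 kept their call in all alternatives run and 30 lost it in some. Among counts of called genes, CT2A against 005 moved from 0 to 1 in DESeq2, where 1777 of 17481 tested genes were called. With only the samples compared, 005 against naïve brain moved from 1 to 0, and 222 of 14993 tested genes were called. In the same setting 005 against Mut3 moved from 6 to 3, with 925 of 15736 called. In the main fit these comparisons called 719, 2217 and 3463 of 17481 genes. With 1 sample left out the counts ranged from 3 to 7 (CT2A against naïve brain), 2 to 4 (GL261), 0 to 4 (005) and 6 to 8 (Mut3), from 2 to 4 for CT2A against GL261 and Mut3 and for GL261 against 005, 0 to 0 for CT2A against 005, 6 to 7 for GL261 against Mut3, 4 to 7 for 005 against Mut3, and 8 to 9 over the 5 groups. Over the same left-out samples, 4683 to 7502 of all tested genes were called in CT2A against naïve brain. The ranges were 1988 to 5535 in GL261, 1006 to 6535 in 005 and 5489 to 7221 in Mut3. Between lines they were 599 to 2216 (CT2A against GL261), 1346 to 3222 (CT2A against Mut3) and 192 to 1073 (GL261 against 005). They were 183 to 791 (CT2A against 005), 1433 to 4125 (GL261 against Mut3), 1762 to 3507 (005 against Mut3) and 7651 to 10877 (5 groups).

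The log2 fold changes that reversed were not called, and all did so only when 1 sample was left out. With the range over the samples left out, CT2A over Mut3 ran from −0.36 to 0.87 for Igf2 and from −0.12 to 1.04 for Meg3 (lowest without CT2A replicate 1). Dlk1 over naïve brain ran from −1.56 to 0.04 in CT2A and from −2.83 to 0.10 in 005 (highest without naïve replicate 2). Without 005 replicate 3, 005 over Mut3 became −0.94 for Dlk1 (to 1.89), and CT2A over 005 became 0.45 for Peg3 (from −1.97), 0.04 for Plagl1 (from −0.96) and 0.57 for Ndn (from −2.61). Mest ran from −0.09 (without GL261 replicate 3) to 1.40 in GL261 over naïve brain and from −1.49 to 0.39 (without Mut3 replicate 1) in GL261 over Mut3. The cause was not tested.

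With the replicate number as a block the counts were 6, 3, 1 and 8 for CT2A, GL261, 005 and Mut3 against naïve brain, and 4 for 005 against Mut3. Of all 17481 tested genes, 6373, 3279, 1762 and 6196 were then called in the same order, and 2551 for 005 against Mut3. The replicate numbers do not pair the samples: deviations of same-numbered samples correlated at a median r of −0.02 over 30 pairs, and 3 of 15 samples correlated best with their own number. Dlk1, Phlda2, Kcnq1, Magel2, Snurf, Cdkn1c in CT2A, Igf2 in CT2A and Mut3, and Plagl1 in Mut3 rest on few counts, so depth limits them.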

Other observations

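Imprinted genes outside the domains described above were read from a list of 24, of which 22 were tested. In CT2A 2 were higher and 9 lower than in naïve brain, beside 19% and 20.2% of all tested genes, in GL261 1 and 4 (14.6% and 7.77%), in 005 1 and 0 (11.6% and 1.05%), and in Mut3 4 and 14 (17.9% and 19.8%). In 005 without replicate 3, 2 were higher and 12 lower (17.6% and 18.1%). Their median log2 fold change was −1.68, −1.26, −0.86 and −1.98 in that order, beside −0.04, −0.08, 0.01 and 0.11 over all tested genes. Sgce, which encodes epsilon-sarcoglycan, was the member higher in all 4 lines, by 2.59 in CT2A (adjusted p = 0.000338), 1.15 in GL261 (adjusted p = 0.0279), 1.35 in 005 (adjusted p = 0.0194, or 1.55 without 005 replicate 3) and 1.95 in Mut3 (adjusted p = 0.00102). The calls of Sgce in GL261 and 005 were each lost in 5 of 21 alternatives, among them leaving out naïve replicate 1 or 2 or replicate 1 or 2 of the line, and that in GL261 also without naïve replicate 3. Airn, the noncoding RNA that silences Igf2r on the paternal copy, was at 9.65, 16.5 and 15.1 CPM in CT2A against 0.408, 2.24 and 0.541 CPM in naïve brain (log2 fold change 3.69, adjusted p = 0.00129), and it rose in Mut3 by 2.99 (adjusted p = 0.00275). The noncoding RNA Peg13 fell by 3.17 in CT2A (adjusted p = 0.00355) and by 4.65 in Mut3 (adjusted p = 0.000576), and Blcap fell in CT2A, GL261 and Mut3 by 1.64, 1.27 and 1.90, the call in GL261 being lost without naïve replicate 1 or 2 or GL261 replicate 1 or 3. Peg13 and Blcap also fell in 005 when replicate 3 was left out, by 3.27 and 1.23.

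Mcts2 and Zrsr1, a pair of retrogenes of the list, were low in Mut3. Mcts2 was at 0.671, 1.26 and 0.704 CPM in Mut3 and between 10.5 and 30.2 CPM in every other library, and it was 23.2-fold lower in Mut3 than in naïve brain (adjusted p = 6.77e-05). Zrsr1 was at 0.783, 2.89 and 1.23 CPM in Mut3 against 31.4, 44.1 and 23.8 CPM in naïve brain (20.3-fold lower, adjusted p = 9.86e-05), and it also fell 3.15-fold in CT2A (adjusted p = 0.00797, lost without naïve replicate 2). Each has a near-identical parent gene with which reads could be shared in counting, so these levels are less certain than those of single-copy genes. In the domains of the 10 genes, 26 neighbors were listed and 21 tested. Of these 0 were higher and 4 lower in CT2A, 2 and 0 in GL261, 0 and 0 in 005, and 5 and 9 in Mut3, beside the same shares of all tested genes as above. In 005 without replicate 3, 2 of 24 tested were higher and 6 lower.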
